A study of Mus musculus with 6 samples.

Results

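Zinc finger genes whose mouse symbol begins with Zfp were described across 6 RNA-seq libraries of mouse liver. The set held 212 genes, of 362 Zfp symbols that were listed in at least 1 library and of 18253 gene symbols in all. A gene entered when it had at least 1 FPKM in at least 3 of the 6 libraries. FPKM counts sequenced fragments relative to gene length and library size, so that levels can be set beside each other between genes. The genes were thus chosen by their measured level, and the level itself is given only as a description. The same level rule kept 10593 symbols over the whole series, which form the background below.

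All 6 libraries came from livers of C57BL/6 mice that the labels place at postnatal day 21. In both groups the mice had cholestasis (impaired bile flow) brought about by ANIT, alpha-naphthylisothiocyanate, a chemical that is toxic to bile duct cells. The 3 libraries called ANIT below had no second agent. The 3 libraries called celastrol came from mice given ANIT together with celastrol, a triterpenoid from the thunder god vine. Treatment lasted 5 days in both groups, per the labels. No library from an untreated mouse and none from a mouse given celastrol alone was analysed here, and the labels give neither a dose nor the sex. The labels do not say that the 3 libraries of a group came from separate mice, so p-values measure the spread between these libraries, which may be technical. Celastrol replicate 2 stood apart from its group: its 10 most abundant genes took 20.7% of summed FPKM, near the 20.3 to 21.9% of the ANIT libraries, against 33.2% and 31.5% in celastrol replicates 1 and 3. The comparison asks how hepatic RNA levels of zinc finger genes in cholestatic mice differed with celastrol.

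A zinc finger is a short protein fold held together by a zinc ion. Most Zfp genes encode proteins with a row of classical fingers, built around paired cysteines and histidines, that read DNA, and many of these carry a KRAB domain, which recruits the scaffold protein Trim28 (KAP1), the histone methyltransferase Setdb1 and heterochromatin proteins. KRAB zinc finger genes lie in clusters, differ widely between mammals, and are best known for silencing transposable elements. A smaller group with CCCH fingers, the tristetraprolin family of Zfp36, binds AU-rich elements in messenger RNAs and brings in the CCR4-NOT deadenylase, which shortens the poly(A) tail and starts decay.

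Few of the expressed Zfp genes passed the threshold for a difference between the groups, and not passing does not show equal levels. On log2(FPKM + 1), 13 of the 212 genes (6.13%) passed an adjusted p of 0.05 in limma fitted over all genes, against 25% of all genes tested. Of these 13, 5 were higher with celastrol (all genes: 4.41%) and 8 were lower (all genes: 20.6%). The largest fall was that of Zfp385a, from 17.3 ± 3.56 to 4.65 ± 1.03 FPKM (SD, n = 3 each), and the next were those of Zfp950, Zfp276 and the mRNA decay factor Zfp36. On the log2(FPKM + 1) scale the largest rise was that of Zfp707, from 10.8 ± 1.67 to 17.9 ± 4.11 FPKM (SD, n = 3 each). In the ratio of mean FPKM, the less abundant genes Zfp870 and Zfp937 rose more. In whole-liver RNA, fewer cells of a type and less RNA per cell cannot be told apart.

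The direction of the set as a whole depended on how the libraries were scaled. The median log2 difference, celastrol minus ANIT, was -0.01 over the 212 Zfp genes and -0.17 over all genes tested. Median-ratio scaling, which divides each library by the median over genes of its ratio to the geometric mean, used factors of 1.04 to 1.10 for ANIT and 0.88 to 1.04 for celastrol. It moved the median to 0.11 for the Zfp genes and to -0.02 for all genes. After this scaling 20 Zfp genes passed, 17 higher and 3 lower, beside 18.5% of all genes (7.49% higher and 11% lower). Under each of 4 scalings (none, median ratio, equal sums and quantile) the Zfp median lay 0.10 to 0.18 above the median of all genes. This gap is nearly fixed where a scaling moves all genes of a library alike, and it was not matched for level. The sign of the Zfp median itself was negative without scaling and with equal sums, and positive with the other 2.

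**Figure D1:**
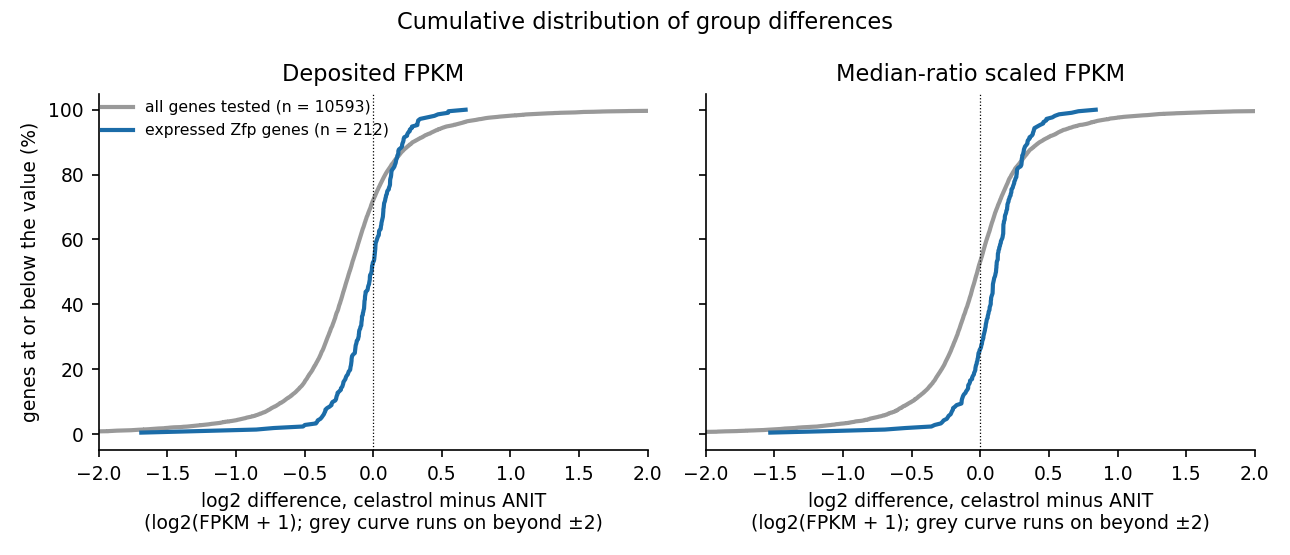
Cumulative share of genes (vertical axis, percent) at or below each log2 difference, celastrol minus ANIT (horizontal axis, log2(FPKM + 1)), for all 10593 genes tested in grey and the 212 Zfp genes in blue, from deposited FPKM on the left and median-ratio scaled FPKM on the right. The blue curve is steeper in both panels and crosses 50% at -0.01 on the left and 0.11 on the right, where the grey curve crosses it at -0.17 and -0.02.

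Taken over all levels, the spread of the differences was narrower among the Zfp genes than in the background. Their interquartile range ran from -0.13 to 0.11, against -0.38 to 0.03 for all genes, and the SD of the log2 differences was 0.25 against 0.53. By mean FPKM, in ranges drawn after the values had been seen, the SD was 0.15 against 0.38 below 2 FPKM. It was 0.20 against 0.42 from 2 to 5 and 0.22 against 0.46 from 5 to 10. At 10 FPKM or more, with 16 Zfp genes, the spread was not clearly narrower, with an SD of 0.61 against 0.65. There 31.2% of Zfp genes and 30.1% of all genes differed by at least 0.5. A difference of at least 0.5 on the log2 scale was found in 8 Zfp genes (3.77%) and in 21.7% of all genes. Values of the 2 groups did not overlap in 56 Zfp genes (26.4%), 28 higher and 28 lower, whereas they did not overlap in 44.9% of all genes (8.35% higher and 36.6% lower). After median-ratio scaling 66 Zfp genes were above and 11 below without overlap (36.3%), beside 40.3% of all genes (17.4% higher and 22.9% lower). The spread between libraries of a group was no wider in the Zfp genes, with a median residual SD of 0.13 against 0.16 for all genes. The 95% confidence interval of the log2 difference lay within ±1 for 207 of the 212 genes (97.6%, all genes 83.1%) and within ±0.5 for 150 (70.8%, all genes 38.1%). These shares were not matched for level, and log2(FPKM + 1) understates the change of genes near 1 FPKM. A narrow interval of a low gene is thus in part a property of the scale. Among the 199 Zfp genes that did not pass, all 199 intervals lay within ±1, and 49 of them reached beyond ±0.5.

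Zfp genes were expressed at low levels, and low genes passed less often in the background too. The median over the set was 2.71 FPKM against 7.23 for all genes that met the level rule. Among genes with a mean below 2 FPKM, 2 of 76 Zfp genes (2.63%) and 13.4% of all genes passed. From 2 to 5 FPKM, 4 of 80 Zfp genes (5%) and 18.8% of all genes did, and from 5 to 10 FPKM, 2 of 40 (5%) and 26.2%. At 10 FPKM or more the shares were 5 of 16 Zfp genes (31.2%) and 32.6% of all genes. After median-ratio scaling the shares in the same 4 ranges were 6.58% of Zfp genes against 12.3% of all genes, 10% against 13.9%, 2.5% against 17% and 37.5% against 24.5%. Without scaling the Zfp share was thus well below the background in the 3 lower ranges. With it the gap in percentage points was narrower in all 3 of these and turned round in the highest, which held few Zfp genes. The median log2 differences without scaling in the 4 ranges were 0.03, -0.03, -0.08 and -0.16 for Zfp genes and -0.03, -0.12, -0.19 and -0.25 for all genes. These ranges were drawn after the values had been seen.

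**Figure D2:**
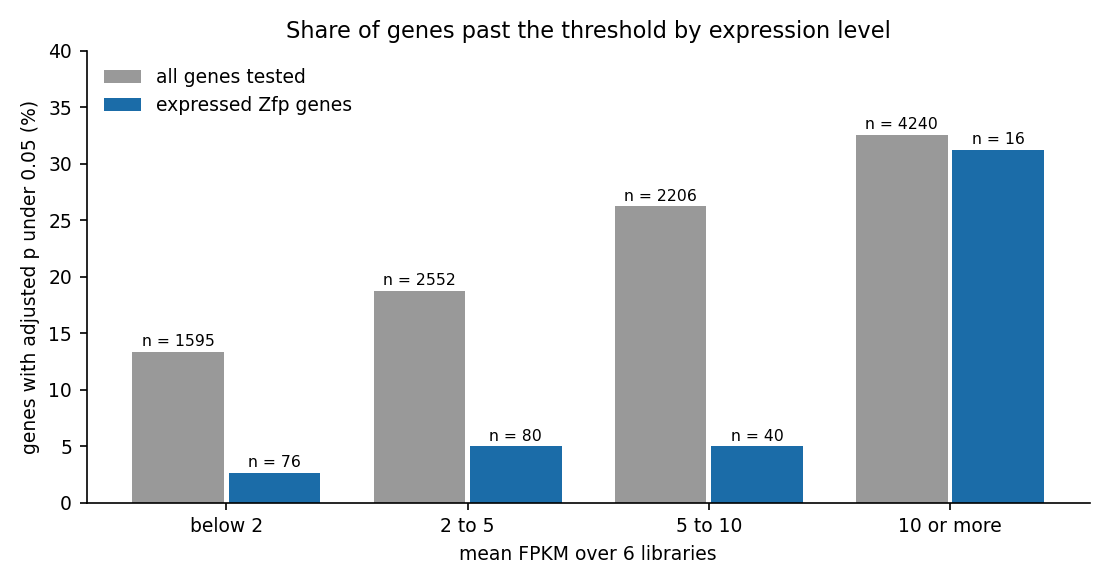
Bars give the share of genes past an adjusted p of 0.05 (vertical axis, percent) in 4 ranges of mean FPKM over 6 libraries (horizontal axis), for all genes tested in grey and Zfp genes in blue, with the number of genes above each bar. Blue bars stand at 2.63% to 5% in the 3 lower ranges and at 31.2% for the 16 Zfp genes with 10 FPKM or more.

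Every one of the 212 genes was listed in all 6 libraries. Of these, 186 reached 1 FPKM in all 6, 11 in 5, 8 in 4 and 7 in 3. Zfp26, Zfp354a and Zfp595 entered through the 3 celastrol libraries alone, and no gene entered through the 3 ANIT libraries alone. Without those 3, the counts were again 5 higher and 8 lower, now of 209. After median-ratio scaling they were 15 higher and 3 lower, where the full set had 17 and 3. Genes higher without overlap then numbered 25 instead of 28 without scaling, and 63 instead of 66 with it. The direction of the 3 genes was fixed in part by the rule. Just inside the level rule stood Zfp229, with 1.1, 1.0 and 0.74 FPKM in ANIT and 0.92, 1.07 and 0.96 with celastrol. Zfp764, with a third-highest value of 1.05 FPKM, was next to it. Just outside were Zfp605 and Zfp157, with a third-highest value of 0.98 and 0.97 FPKM. The 150 Zfp symbols below the rule reached at most 1.35 FPKM in any library, and 25 of them never passed 0.1. Fitted without a level filter, 2 of the 150 were called higher, Zfp454 and Zfp600, and 0 lower, with 13 at an unadjusted p under 0.05 (all 18253 symbols in that fit: 11.4% called). Zfp600, a KRAB gene, was listed at 0, 0 and 0.03 FPKM in ANIT and at 0.12, 0.1 and 0.14 with celastrol, values that rest on very few reads.

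Estimated depth ran from 18940000 to 19840000 reads. The estimate used exon lengths from GENCODE, which may differ from the lengths behind the FPKM values. The FPKM sum was 532840 to 546155 in ANIT and 582233 to 601233 with celastrol. The Zfp genes together took 0.181%, 0.191% and 0.169% of FPKM in ANIT replicates 1 to 3 and 0.146%, 0.167% and 0.147% with celastrol. Their median per library did not separate the groups, at 2.66, 2.84 and 2.44 FPKM in ANIT and 2.58, 2.86 and 2.48 FPKM with celastrol. Leaving out celastrol replicate 2 raised the Zfp calls from 13 to 28 (6 higher, 22 lower), and leaving out celastrol replicate 1 lowered them to 4 (1 higher, 3 lower). Hepatocyte markers (10 of 11 listed) summed to 47636 to 58522 FPKM in ANIT and 29448 to 34108 with celastrol. Of 10 tested genes 1 was higher and 1 lower, with a median log2 difference of -0.13 (0.05 after median-ratio scaling). The hepatocyte marker called lower was Alb, which encodes albumin. The symbol Tf was not listed, and whether that gene stood under another symbol was not checked. Neutrophil markers (9 of 9 listed, 4 of 6 tested higher) summed to 32.3 to 57.2 in ANIT and 70.4 to 97.7 with celastrol. The 6 erythroid markers that met the level rule, mostly haemoglobin genes with Alas2 and Klf1, summed to 230 to 429 FPKM in ANIT and 51.8 to 229 with celastrol. Their median log2 difference was -1.58, with 1 called higher and 0 called lower. The erythroid sum of celastrol replicate 2, 228.71, lay close under that of ANIT replicate 3, 230.19. Sums of markers for bile duct cells, Kupffer cells, stellate cells, endothelium, lymphocytes and dividing cells overlapped between the groups. The part of these shifts in the Zfp values was not tested.

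By a sequence pattern, the set was divided into genes with a KRAB match, called KRAB genes below, and others. The KRAB pattern was found in 88 of the 212 predicted proteins, taken from the longest coding sequence of each gene in GENCODE release M21, and was not found in 124. The pattern is strict and was sought in that coding sequence only, so the 124 others may include genes with a KRAB domain. KRAB genes had a median of 12 classical fingers and 6 TGEKP linkers, the short spacer between adjacent DNA-binding fingers. The others had a median of 7 fingers and 0 linkers, and the largest number of fingers in any gene was 37. KRAB genes were expressed at a median of 1.85 FPKM and the others at 3.53, and of the 16 genes with 10 FPKM or more, 4 held the pattern. No classical finger was matched in 9 genes, Zfp330, Zfp36, Zfp36l1, Zfp36l2, Zfp703, Zfp750, Zfp839, Zfp935 and Zfpl1, and CCCH fingers were matched in 4, Zfp330 and the 3 expressed genes of the Zfp36 family.

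Called genes made up similar shares of the 2 classes. Among the 88 KRAB genes 4 rose and 1 fell (5.68% called), with a median log2 difference of 0.04. Among the 124 others 1 rose and 7 fell (6.45% called), with a median of -0.06. Of all genes tested, 4.41% rose and 20.6% fell. After median-ratio scaling the counts were 8 higher and 0 lower with KRAB (9.09% called, median 0.15), and 9 higher and 3 lower without (9.68% called, median 0.09). The shares of all genes were then 7.49% higher and 11% lower. The difference between the classes was not tested, and the classes differ in level.

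Promoter sequence gave a second feature that the level rule had not used. RefSeq promoter windows on GRCm38.p6, 250 bases before to 50 after a start, matched 178 of the 212 genes with 225 windows, and they were set beside 32851 windows of all genes and 10390 windows of genes that met the level rule. The letters GCCAATCA, which contain the CCAAT box bound by the factor NF-Y, stood on either strand in 15.6% of Zfp windows, 3.81% of all windows and 5.25% of windows of expressed genes. Among KRAB genes 24 of 93 windows held them (25.8%), and among the other Zfp genes 11 of 132 (8.33%). This motif was added after the sequences had been seen. CCGGAAG, a core bound by ETS factors, was present in 21.8% of Zfp windows, 8.86% of all windows and 18.2% of those of expressed genes. GGGCGG, the GC box bound by Sp1, went the other way within the set, at 32.3% for KRAB genes and 61.4% for the others, beside 62% for expressed genes and 35.7% for all. TATAAA, the TATA box, was in 6.22% of Zfp windows, 7.6% of those of expressed genes and 13.6% of all windows. The remaining 3 motifs, AAGATGGC for YY1, TGACGTCA for CREB and the exact palindrome of NRF1, were in 5.33%, 4% and 2.22% of Zfp windows, beside 4.74%, 3.08% and 2.11% for expressed genes. A match is a description of the letters and not evidence of binding.

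Called genes with GCCAATCA were found in both directions, with no test of the motif made. The motif had been added after promoter sequences were seen, so the shares called with and without it are no independent evidence about it. Of 31 expressed Zfp genes with the motif, 2 were higher and 2 lower with celastrol, and their median log2 difference was 0.02 (12.9% called). Of 147 with a window and no such match, 1 was higher and 4 lower, with a median of -0.02 (3.4% called, all genes 25%). Only 9 of the 13 called genes had a window, and Zfp276, Zfp707, Zfp750 and Zfp870 stood in neither class. After median-ratio scaling the counts were 2 higher and 2 lower with the motif, and 8 higher and 0 lower without it. The 250 bases before the start are given for Zfp385a, the gene that fell most, and for 3 further called genes with GCCAATCA, Zfp950 (lower) and Zfp937 and Zfp825 (higher). The positions are chr15:103340087-103340336 (minus strand) for Zfp385a, chr19:61140841-61141090 (minus) for Zfp950, chr2:150217849-150218098 (plus) for Zfp937 and chr13:74493962-74494211 (minus) for Zfp825, all on GRCm38.p6. Capitals mark exact matches to the 7 motifs or their reverse complements, written 5′ to 3′ on the strand of the gene.
Zfp385a: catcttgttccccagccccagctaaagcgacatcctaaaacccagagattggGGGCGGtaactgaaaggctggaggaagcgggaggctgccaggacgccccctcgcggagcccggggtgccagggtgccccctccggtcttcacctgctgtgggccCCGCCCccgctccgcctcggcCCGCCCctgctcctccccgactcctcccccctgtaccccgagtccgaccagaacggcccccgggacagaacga
Zfp950: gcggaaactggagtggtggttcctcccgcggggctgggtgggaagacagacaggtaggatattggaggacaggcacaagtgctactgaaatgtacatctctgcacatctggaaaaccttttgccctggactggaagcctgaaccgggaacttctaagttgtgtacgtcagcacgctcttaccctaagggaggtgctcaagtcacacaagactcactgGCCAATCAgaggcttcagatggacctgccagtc
Zfp937: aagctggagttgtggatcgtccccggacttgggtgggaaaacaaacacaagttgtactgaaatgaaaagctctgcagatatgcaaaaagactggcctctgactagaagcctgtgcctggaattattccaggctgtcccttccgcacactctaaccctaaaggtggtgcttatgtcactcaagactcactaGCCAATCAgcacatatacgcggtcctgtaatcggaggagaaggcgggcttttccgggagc
Zfp825: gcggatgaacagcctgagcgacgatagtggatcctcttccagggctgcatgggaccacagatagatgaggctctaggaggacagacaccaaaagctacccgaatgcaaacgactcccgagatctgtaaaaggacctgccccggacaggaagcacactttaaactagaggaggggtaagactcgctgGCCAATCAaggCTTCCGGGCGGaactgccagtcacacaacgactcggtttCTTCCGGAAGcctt
In Zfp385a the capitals are GGGCGG and its reverse complement CCGCCC, 3 times in all. In the others the shared run is GCCAATCA, and Zfp825 adds CCGGAAG matches on both strands, one of which overlaps GGGCGG and a pair of which overlap each other. The windows of Zfp950 and Zfp937 were identical at 58.8% of aligned positions, and those of Zfp950 and Zfp825 at 57.4%. Zfp825 and Zfp937 stood at 52.6%, and Zfp385a matched the other 3 at 42.8 to 47.2%. Zfp385a has a second window, at another start, that holds GCCAATCA on the opposite strand and is not printed.

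Zfp385a, also called Hzf, encodes an RNA-binding zinc finger protein that is a target of p53, and lies at chr15:103313895-103340093 on the minus strand (GRCm38). Its level was 17.9, 20.4 and 13.4 FPKM in the ANIT libraries and 4.84, 5.57 and 3.54 with celastrol. All 3 celastrol libraries lay far below all 3 ANIT libraries. The level was 3.71-fold lower with celastrol, and the log2 difference was -1.69 ± 0.19 (SE), adjusted p = 0.0016 in limma. It passed under all 4 scalings and without any 1 library. Its paralog Zfp385b showed no such separation, with 6.18, 6.82 and 6.26 FPKM in ANIT and 3.56, 7.23 and 4.26 with celastrol. There the highest of the 6 values was that of celastrol replicate 2, and the log2 difference of -0.35 ± 0.21 (SE) had an adjusted p of 0.25. Over the 6 fits that each leave out 1 library, its adjusted p ran from 0.0081 to 0.59.

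Zfp950, a gene with 17 classical fingers at chr19:61053840-61140840 on the minus strand, had 20.3, 21.4 and 11.9 FPKM in ANIT and 6.73, 7.10 and 6.19 with celastrol. ANIT replicate 3 was well below the other 2 ANIT libraries but above every celastrol library. The level was 2.68-fold lower, with a log2 difference of -1.26 ± 0.21 (SE) and an adjusted p of 0.0065.

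Zfp276, at chr8:123254195-123269745 on the plus strand, had 8.36, 9.69 and 9.09 FPKM in ANIT and 4.55, 4.83 and 4.31 with celastrol. The groups were tight and far apart, a 1.98-fold difference, with a log2 difference of -0.85 ± 0.10 (SE) and an adjusted p of 0.0016. Its exons overlap those of Vps9d1 and Fanca on the other strand. Vps9d1 fell too, from 9.54, 9.25 and 7.87 to 4.52, 6.20 and 4.60 FPKM, a log2 difference of -0.70 with an adjusted p of 0.00996, while Fanca reached at most 0.17 FPKM. Whether the counting used strand is not stated in the labels, and reads of Zfp276 and Vps9d1 in the shared stretch cannot be told apart. Zfp385a, Zfp950 and Zfp276 are the 3 genes that stayed lower after median-ratio scaling, and each also passed without any 1 library.

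**Figure D3:**
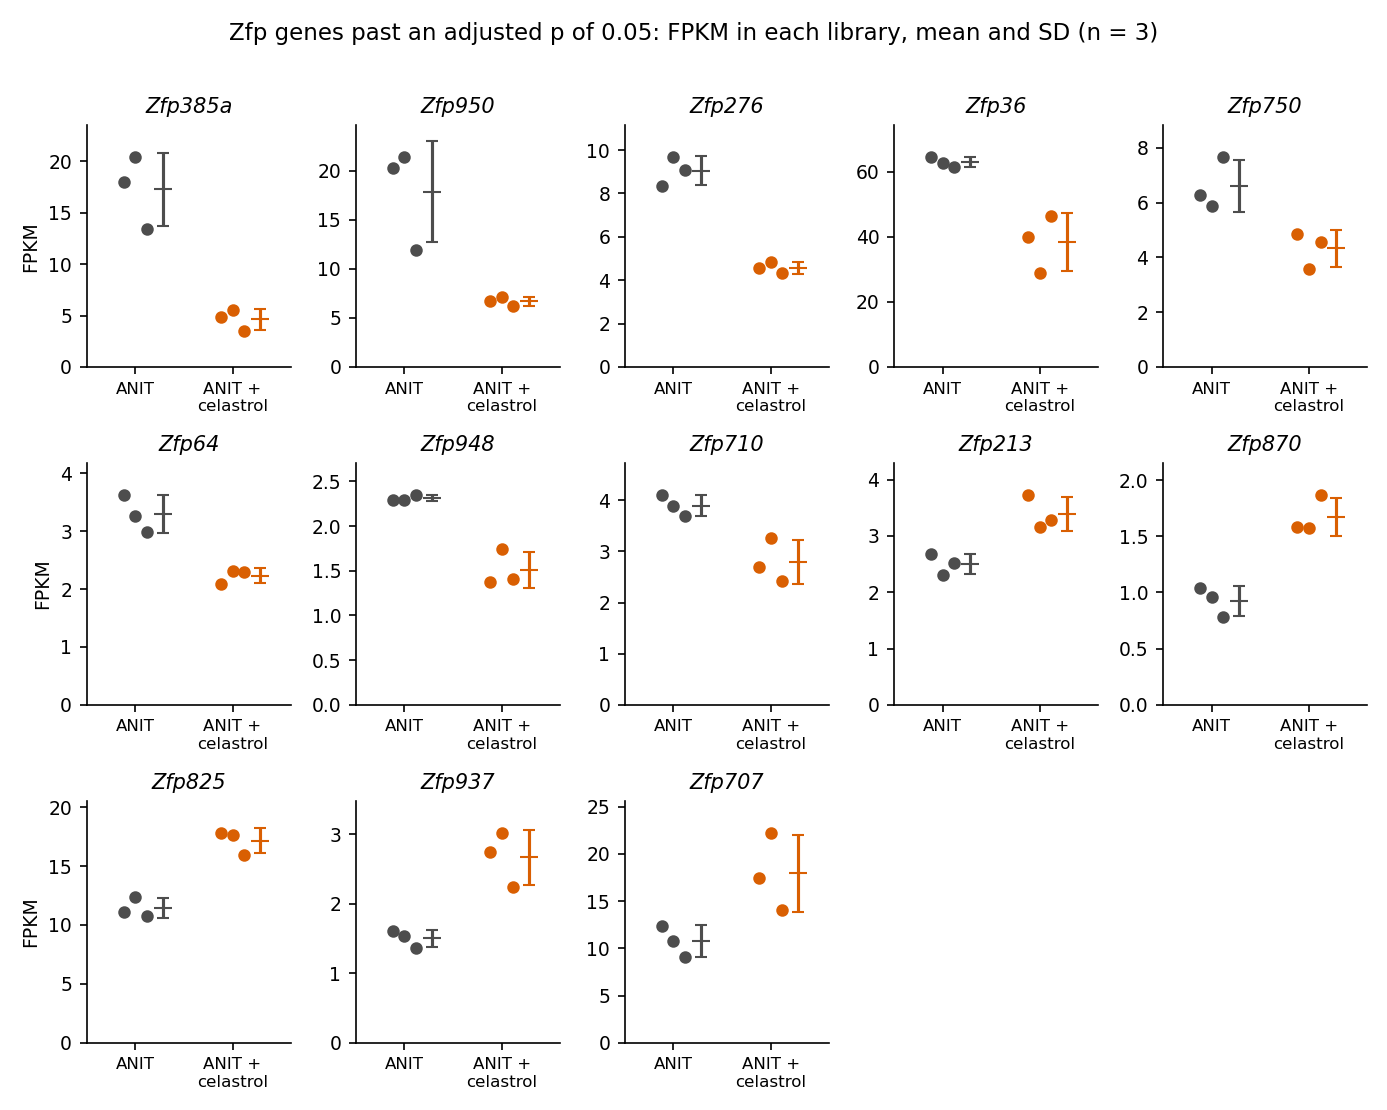
FPKM (vertical axes, each from 0) in the 3 ANIT libraries (grey points) and the 3 celastrol libraries (orange points) for the 13 Zfp genes with an adjusted p under 0.05. Panels are ordered by log2 difference from the largest fall to the largest rise, with bars for mean and SD (n = 3). The groups do not overlap in any of the 13 panels. Relative to the height of the panel, the gap is widest for Zfp385a and narrow for Zfp707, Zfp710, Zfp750 and Zfp213.

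Zfp36 encodes tristetraprolin, which shortens the life of messenger RNAs for inflammatory cytokines, and lies at chr7:28376784-28380253 on the minus strand. It was the second most abundant gene of the set, with 64.6, 62.7 and 61.4 FPKM in ANIT and 39.95, 28.8 and 46.5 with celastrol. The ANIT values lay close together, while the celastrol values were spread and all lower. The level was 1.64-fold lower, with a log2 difference of -0.72 ± 0.18 (SE) and an adjusted p of 0.023. After median-ratio scaling the difference was -0.55 ± 0.22 (SE) and the adjusted p was 0.13. It also lost the threshold when any 1 ANIT library or celastrol replicate 1 was left out (highest adjusted p 0.079).

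The other expressed genes of this family, Zfp36l1 and Zfp36l2, had higher means with celastrol and did not pass. Zfp36l1, the most abundant Zfp gene in these livers, had 54.0, 57.5 and 55.6 FPKM in ANIT and 61.0, 70.2 and 62.9 with celastrol. Every celastrol library was above every ANIT library, by a log2 difference of 0.21 ± 0.12 (SE) with an adjusted p of 0.21. After median-ratio scaling the difference was 0.39 ± 0.09 (SE) with an adjusted p of 0.023, a call lost when any library but celastrol replicate 2 was left out (highest adjusted p 0.082). Zfp36l2 had 7.73, 10.7 and 11.9 FPKM in ANIT and 9.61, 15.2 and 11.3 with celastrol, and the groups overlapped, with a log2 difference of 0.23 ± 0.20 (SE). Zfp36l3, the family's placental gene, was listed at 0 to 0.02 FPKM and was not tested. Thus in ANIT livers Zfp36 and Zfp36l1 stood at 62.9 ± 1.57 and 55.7 ± 1.77 FPKM, and with celastrol at 38.4 ± 8.93 and 64.7 ± 4.83 (SD, n = 3 each), so that their order changed. The difference between the changes of these genes was not tested.

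**Figure D4:**
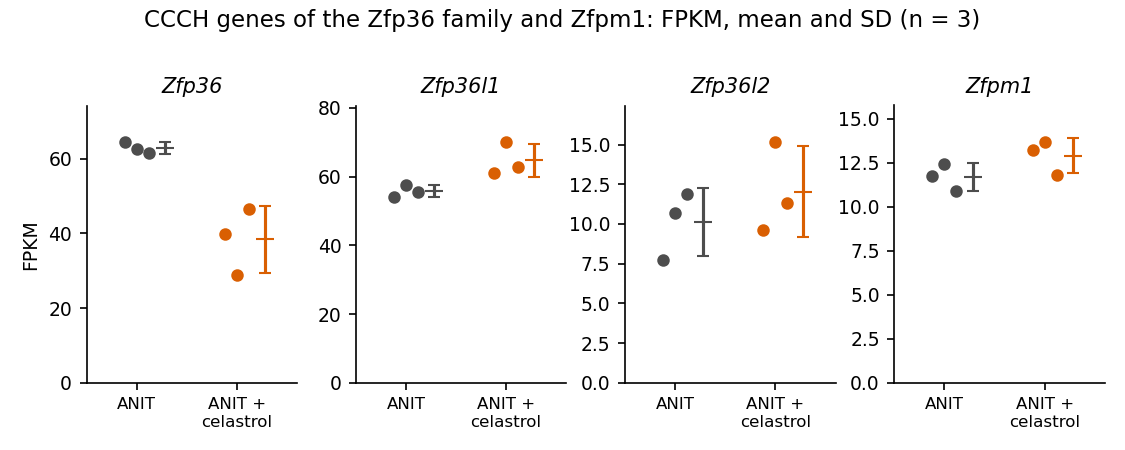
FPKM (vertical axes, each from 0) of Zfp36, Zfp36l1, Zfp36l2 and Zfpm1 in the 3 ANIT libraries (grey) and the 3 celastrol libraries (orange), with bars for mean and SD (n = 3). Zfp36 falls from 62.9 to 38.4 FPKM on average, Zfp36l1 is above its ANIT values in all 3 celastrol libraries, and the groups overlap for Zfp36l2 and Zfpm1.

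Partners of the tristetraprolin family were counted from a list of deadenylation and decapping genes. Of 22 tested, 0 were higher and 5 lower with celastrol, namely Btg1, Btg2, Cnot1, Cnot6 and Tob2, and after median-ratio scaling 0 were higher and 1 lower. The 5 are 22.7% of the list, near the 20.6% of all genes that were lower, and the list's median of -0.18 was near the -0.17 of all genes. Btg2, an antiproliferative protein that brings the deadenylase to its targets, had 25.4, 20.4 and 27.7 FPKM in ANIT and 10.2, 8.14 and 14.1 with celastrol, a log2 difference of -1.13 ± 0.20 (SE) with an adjusted p of 0.0078. Btg1, its close relative, fell as well, with a log2 difference of -0.70 ± 0.16 (SE) and an adjusted p of 0.020. The groups did not overlap for Btg2. Without 1 library the number of these genes called fell to between 1 and 3 in 5 of 6 fits, and Btg1 lost the threshold without ANIT replicates 2 or 3 or celastrol replicate 1 (highest adjusted p 0.082).

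The other 4 genes that fell did so by less and failed to pass after median-ratio scaling. Zfp750, a regulator of epidermal differentiation downstream of p63 (chr11:121510978-121519333, minus strand), had 6.28, 5.86 and 7.67 FPKM in ANIT and 4.87, 3.58 and 4.57 with celastrol (log2 difference -0.51, adjusted p = 0.031). Zfp64, a classical zinc finger transcription factor (chr2:168893331-168955587, minus strand), had 3.63, 3.27 and 2.98 FPKM in ANIT and 2.08, 2.32 and 2.29 with celastrol (log2 difference -0.41, adjusted p = 0.024). In both genes the lowest ANIT library stayed above the highest celastrol library.

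Zfp948, the 1 called gene with a KRAB match that fell (chr17:21567008-21588699, plus strand), had 2.29, 2.29 and 2.35 FPKM in ANIT and 1.37, 1.74 and 1.41 with celastrol (log2 difference -0.40, adjusted p = 0.027). Zfp710 (chr7:80024814-80094173, plus strand) had 4.11, 3.88 and 3.7 FPKM in ANIT and 2.69, 3.26 and 2.42 with celastrol (log2 difference -0.37, adjusted p = 0.044). Again the groups did not overlap, and in both genes celastrol replicate 2 was the celastrol library nearest to ANIT. Adjusted p-values of these 4 after median-ratio scaling were 0.062 to 0.18, so none of the 4 passed there. Zfp750, Zfp948 and Zfp710 also lost the threshold when any library but celastrol replicate 2 was left out, and Zfp64 when any but ANIT replicate 3 and celastrol replicate 2 was (highest adjusted p 0.084, 0.11, 0.14 and 0.095 for Zfp750, Zfp948, Zfp710 and Zfp64).

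Of the 5 genes that rose, 4 held the KRAB pattern, a domain best known from transcriptional repressors. Zfp707 (chr15:75969123-75975868, plus strand) had 12.4, 10.8 and 9.07 FPKM in ANIT and 17.5, 22.2 and 14.1 with celastrol. All celastrol libraries were above all ANIT libraries, though they were spread, and the log2 difference was 0.67 ± 0.18 (SE) with an adjusted p of 0.031. It lost the threshold without ANIT replicate 2 or 3 or celastrol replicate 1 (highest adjusted p 0.093), and in a fit without a level filter (adjusted p 0.061). Zfp825 (chr13:74480054-74493992, minus strand) had 11.1, 12.4 and 10.8 FPKM in ANIT and 17.8, 17.7 and 15.9 with celastrol. The rise was 1.5-fold, with tight groups, a log2 difference of 0.55 ± 0.10 (SE) and an adjusted p of 0.0094, and it passed without any 1 library. Zfp825 shares 22.4% of its transcript sequence with another gene at near identity, so its value may hold reads of that copy.

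Zfp937 (chr2:150218073-150240725, plus strand) had 1.6, 1.54 and 1.36 FPKM in ANIT and 2.74, 3.02 and 2.24 with celastrol. The rise was 1.78-fold and the groups lay clearly apart, with a log2 difference of 0.55 ± 0.12 (SE) and an adjusted p of 0.014. Zfp870 (chr17:32879219-32891642, minus strand) had 1.04, 0.96 and 0.78 FPKM in ANIT and 1.58, 1.57 and 1.87 with celastrol, a 1.81-fold rise with an adjusted p of 0.022. Zfp937 lost the threshold without celastrol replicate 1, with an adjusted p of 0.062. Zfp870 lost it when replicate 3 of either group, ANIT replicate 2 or celastrol replicate 1 was left out (highest adjusted p 0.074). Both genes are low, and the log2(FPKM + 1) scale understates the change of genes near 1 FPKM.

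Zfp213, the riser without a KRAB match (chr17:23556767-23564238, minus strand), had 2.67, 2.31 and 2.52 FPKM in ANIT and 3.73, 3.16 and 3.28 with celastrol, with an adjusted p of 0.049. Its groups did not overlap, but the value was near the threshold and was lost when any library but celastrol replicate 2 was left out (highest adjusted p 0.17). All 5 genes that rose also passed after median-ratio scaling, with adjusted p-values of 0.0029 to 0.032.

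**Figure D5:**
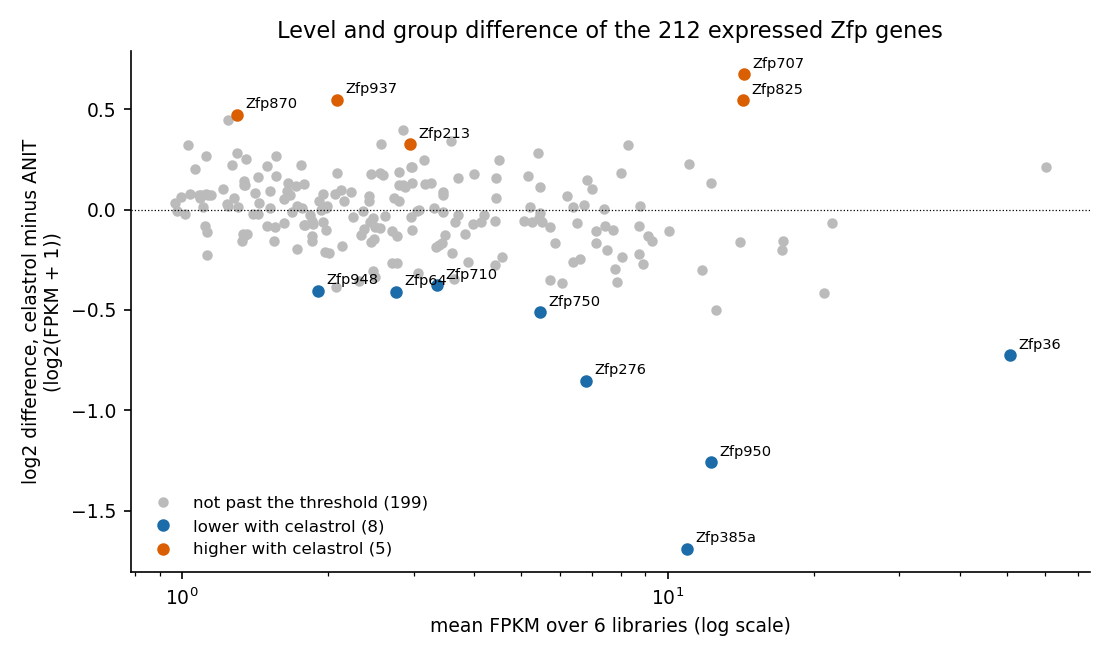
Log2 difference, celastrol minus ANIT, on log2(FPKM + 1) (vertical axis) against mean FPKM over 6 libraries (horizontal axis, log scale) for the 212 Zfp genes, with the 8 lower genes in blue, the 5 higher genes in orange and the 199 others in grey. Most points lie between -0.5 and 0.5 at all levels, and Zfp385a and Zfp950, at -1.69 and -1.26, are the 2 genes beyond 1 in either direction.

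Of 6 tested KRAB genes from a list of retroelement and imprint repressors, 0 passed in either direction. Zfp445, which keeps the DNA methylation of imprinted regions, had 14.3, 15.1 and 15.4 FPKM in ANIT and 13.0, 14.5 and 12.3 with celastrol, with overlapping groups and a log2 difference of -0.16 (95% interval -0.39 to 0.07). Zfp809, which silences retroviruses through their proline tRNA primer site, had 15.01, 16.9 and 12.4 FPKM in ANIT and 8.41, 14.4 and 8.40 with celastrol. Celastrol replicate 2 lay among the ANIT values and the other 2 celastrol libraries lay below them. The log2 difference was -0.50 ± 0.21 (SE) with an adjusted p of 0.13, which became 0.0093 without celastrol replicate 2. Zfp568, which represses a placental transcript of Igf2, had 3.14, 2.70 and 2.30 FPKM in ANIT and 1.5, 2.28 and 1.95 with celastrol, with an adjusted p of 0.099 (0.049 without celastrol replicate 2). Its groups did not overlap, though the highest celastrol value was close under the lowest ANIT value.

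Of the KRAB repressor complex, 24 genes were tested, with 0 higher and 3 lower with celastrol and, after median-ratio scaling, 0 higher and 1 lower. The 3 are 12.5% of the list, against 20.6% of all genes that were lower, and the list's median was -0.06. Mbd3, a subunit of the NuRD remodelling complex, had 33.7, 33.2 and 35.1 FPKM in ANIT and 23.0, 27.4 and 19.98 with celastrol, a log2 difference of -0.53 ± 0.13 (SE) with an adjusted p of 0.026. Mphosph8, which binds methylated histone H3 within the HUSH silencing complex, fell by 0.39 on the log2 scale with an adjusted p of 0.031. The third was Rbbp7, a histone chaperone, at a log2 difference of -0.45. Groups did not overlap for Mbd3. Without ANIT replicates 1 or 2 or celastrol replicates 1 or 3 none of the 24 was called (0), and without celastrol replicate 2 there were 6.

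Zfpm1, or FOG1, the cofactor of GATA factors, had 11.8, 12.4 and 10.9 FPKM in ANIT and 13.2, 13.7 and 11.8 with celastrol. The groups overlapped, and the log2 difference of 0.13 ± 0.10 (SE) had an adjusted p of 0.37. After median-ratio scaling the difference was 0.30 ± 0.08 (SE) with an adjusted p of 0.039, a call also lost when any library but celastrol replicate 2 was left out (highest adjusted p 0.13). Of its partners, Gata6 went from 5.97 ± 0.30 to 4.70 ± 0.51 FPKM (SD, n = 3 each; adjusted p = 0.069) and Gata4 from 4.02 ± 0.99 to 3.24 ± 0.56 FPKM (adjusted p = 0.34). Neither passed, and Zfpm2 was below the level rule.

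Genes of translation and RNA handling made up much of the rest of the most abundant Zfp genes. Zfp598, the ubiquitin ligase that marks collided ribosomes, had 23.5, 23.5 and 19.9 FPKM in ANIT and 19.6, 25.4 and 19.1 with celastrol, and the groups overlapped. Zfp593, which acts in ribosome biogenesis, had the smallest p of its list with a log2 difference of -0.27 ± 0.13 (SE) and an adjusted p of 0.16. No gene of the ribosome and translation list passed (0 of 4). Zfp706 had 16.3, 18.4 and 19.96 FPKM in ANIT and 15.8, 19.5 and 13.8 with celastrol, also overlapping.

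Zfp207, or BuGZ, which binds the spindle checkpoint protein Bub3, had 30.0, 22.9 and 19.96 FPKM in ANIT and 17.4, 18.2 and 17.5 with celastrol. All celastrol values were lower, but the ANIT values were spread, and the log2 difference of -0.42 ± 0.15 (SE) had an adjusted p of 0.079 (0.050 without ANIT replicate 3, where it passed). Of 8 tested genes for RNA binding and splicing, Zfp385a alone passed. Zfp91, a ubiquitin ligase of the alternative NF-kappaB pathway, had 17.1, 19.96 and 18.3 FPKM in ANIT and 14.2, 18.1 and 15.6 with celastrol, with overlapping groups.

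No gene passed in 2 further groups of transcriptional regulators. Of 8 promoter-binding activators, Zfp335 had the smallest p, with 5.02, 5.08 and 4.65 FPKM in ANIT and 3.60, 4.31 and 3.77 with celastrol and an adjusted p of 0.073 (0.032 without celastrol replicate 2). Zfp410, which activates Chd4, differed by -0.09 ± 0.11 (SE), and Zfp148 by -0.01 ± 0.10 (SE). Of 5 adipose and metabolic regulators, Zfp703, a transcriptional corepressor, had 1.96, 2.47 and 2.55 FPKM in ANIT and 3.15, 3.94 and 3.04 with celastrol. The groups did not overlap, and the log2 difference of 0.39 ± 0.12 (SE) had an adjusted p of 0.052, and of 0.017 after median-ratio scaling.

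The calls under the 2 scalings shared 8 genes, Zfp213, Zfp276, Zfp385a, Zfp707, Zfp825, Zfp870, Zfp937 and Zfp950. These are 8 of the 13 called without scaling and 8 of the 20 called with it. Zfp36, Zfp64, Zfp710, Zfp750 and Zfp948 passed without scaling only. Passing with scaling only were 12 genes, Zfp354a, Zfp36l1, Zfp428, Zfp574, Zfp595, Zfp612, Zfp646, Zfp65, Zfp703, Zfp830, Zfp956 and Zfpm1. Zfp354a, known as Kid1 from its fall in injured kidney, is an example, with 0.87, 0.93 and 0.62 FPKM in ANIT and 1.19, 1.25 and 1.32 with celastrol. Zfp354a and Zfp595 entered the set through the celastrol libraries alone, so their direction was fixed in part by the rule. Under all 4 scalings 7 genes passed, the 8 shared ones without Zfp213.

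Members were spread over 20 chromosomes, with 46 on chromosome 7 (20 with the KRAB pattern) and 32 on chromosome 17 (22 with it). On chromosome 7, 0 were higher and 2 lower (4.3% called), and on chromosome 17, 2 were higher and 1 lower (9.4% called). Of all genes tested 25% were called. In 7 runs of at least 5 neighbours no more than 250000 bases apart, which held 50 of the genes, 2 genes passed. The longest run, 9 genes at chr17:32765496-33631779, had differences from -0.32 to 0.47 and included Zfp870, and 8 KRAB genes at chr17:21423227-22071168 ran from -0.40 to 0.13 and included Zfp948. A run of 8 KRAB genes at chr13:67069399-67729173, with Zfp708 and Zfp595, ran from -0.34 to 0.34 and held no called gene without scaling and 2 with median-ratio scaling. The number above 0 in these 3 runs was 6 of 9, 3 of 8 and 5 of 8 without scaling, and 8 of 9, 5 of 8 and 7 of 8 after median-ratio scaling, so the signs of these small differences depended on the scaling.

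Some Zfp values are uncertain because copies or neighbours share sequence. Stretches of at least 50 bases at 98% identity or more with another transcript covered 20% or more of 6 genes, Zfp433, Zfp825, Zfp955a, Zfp955b, Zfp960 and Zfp97. In 27 genes an exon overlapped that of another listed gene. Without both kinds 179 genes were left, of which 4 were higher and 7 lower.

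Zinc finger genes under other names were set beside the Zfp genes as a description. Of 34 tested Zbtb genes, which join a BTB domain to classical fingers, 1 was higher and 1 lower, with a median log2 difference of -0.04. Of 15 Zkscan and Zscan genes, which carry a SCAN domain, 1 was higher and 0 lower, with a median of 0.13. Among 15 Zc3h genes, of the CCCH type, 0 were higher and 1 lower, with a median of -0.22, near the -0.17 of all genes. Of 9 Zmym and Zmynd genes none passed in either direction (0 higher and 0 lower). The shares called were 5.88% of Zbtb genes, 6.67% of Zkscan and Zscan genes and 6.67% of Zc3h genes. Beside these stood 6.13% of Zfp genes and 25% of all genes, so a low share was not particular to the Zfp genes. After median-ratio scaling the 3 shares were 11.8%, 26.7% and 0%, beside 9.43% of Zfp genes and 18.5% of all genes. The families are small.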

How the data were processed

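Libraries of liver total RNA were read as 1 table each of gene symbols with FPKM that the authors deposited, per the file headers. The submitters' processing notes name HISAT2 and featureCounts without versions, and the build mm10. Gene lengths, annotation and strand use were not given in the sources used here, and counts were not rebuilt. An unlisted symbol took the value 0, and repeated names that had become dates were dropped.

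The 212 genes, the gene lists, the marker lists and the tests were chosen with earlier results of these data known. The genes named are those past the threshold, the 10 most abundant, all of the CCCH and GATA cofactor lists, the smallest p of each other role list and the 2 smallest of each partner list. Zfp385b, Zfp148, Zfp410 and Zfp354a were named after their values were seen.

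The fit used limma 3.58.1 (R 4.3.3; trend and robust variance, group as the only term) on log2(FPKM + 1) of all 10593 genes that met the level rule, with Benjamini-Hochberg adjustment over all of them. The script was tested on simulated data. Depth was estimated from the steps between low FPKM values. Positions, exons and coding sequences came from GENCODE release M21 (GRCm38), promoters from RefSeq (GRCm38.p6), shared stretches from blastn 2.17.0, and identities of promoters from Biopython 1.88. Alternatives were other scalings, pseudocounts of 0.1, other level filters, non-robust variance, a replicate block and leaving out each library. No RefSeq protein table was used here, and proteins were translated for pattern counts only. One marker is not reported here.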

Additional observations from a re-analysis of the deposited data

How the results depend on the processing

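Against 13 Zfp genes called (5 higher, 8 lower), median-ratio scaling gave 20 (17 higher, 3 lower), equal sums 30 (4 higher, 26 lower) and quantile normalization 15 (12 higher, 3 lower). Fitted with no filter, 9 were called (3 higher, 6 lower), and Zfp707 (adjusted p 0.061), Zfp213 (0.079), Zfp750 (0.058) and Zfp710 (0.075) lost the threshold. Leaving out 1 library gave 4 to 28 called, 1 to 6 higher and 3 to 22 lower. The lowest count came without celastrol replicate 1 and the highest without celastrol replicate 2; the count was 8 without ANIT replicate 1 or celastrol replicate 3, 5 without ANIT replicate 2 and 7 without ANIT replicate 3. The count of all genes past the threshold, 2652, became 4212 with equal sums and 1127 to 3841 without 1 library. The 20 calls after median-ratio scaling became 6 without ANIT replicate 2 or celastrol replicate 1, 9 without replicate 3 of either group, 10 without ANIT replicate 1 and 16 without celastrol replicate 2. The median Zfp difference of -0.01 was 0.11 with median-ratio scaling, -0.10 with equal sums, 0.11 with quantile normalization and -0.06 to 0.02 without 1 library. The cause was not tested.

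The groups share replicate numbers. Deviations of same-numbered libraries correlated at 0.15, 0.23 and -0.09, so the numbers were not treated as pairs. With the replicate number as a block 17 Zfp genes were called (6 higher, 11 lower), and 12 with the block and median-ratio scaling together. The block took Zfp213 to an adjusted p of 0.051 and brought Zfp809 (0.044) and Zfp703 (0.049) past the threshold. A pseudocount of 0.1, non-robust variance and the filters on the mean or on all 6 libraries kept the counts within 5 to 6 higher and 8 lower. For single genes and lists, no alternative reversed a called direction. At about 19 reads per FPKM and kilobase by the depth estimate, genes near 1 FPKM rest on few reads. Intervals of 49 uncalled Zfp genes reach beyond ±0.5.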
